A study of Mus musculus with 20 samples.

Results

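The 10 transcripts of the IL-6 family and JAK-STAT pathway described here were chosen by name, as receptors, a kinase, factors and inhibitors of the pathway. They are Il6ra, Il6st, Osmr, Jak2, Stat3, Stat5a, Stat5b, Socs2, Socs3 and Cish, 10 of the 55416 genes listed. All 10 were among the 14471 genes with enough counts to be tested. They were measured by RNA sequencing of 20 quadriceps samples from male C57BL/6J mice of wild-type genotype, 26 to 28 months old and fasted for 4 h. Each muscle had received a single injection of 50 µL, either 0.9% saline (control, n = 10) or a cell-free secretome prepared from the medium of partially differentiated human embryonic stem cells (secretome, n = 10), and was collected 3 h later. All mice were old, so no young muscle stands beside these values, and the control injection was saline and not unconditioned medium.

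Cytokines of the IL-6 family bind a receptor chain of their own, such as the products of Il6ra and Osmr, which pairs with the shared signalling chain encoded by Il6st. The bound receptor activates Janus kinases, among them Jak2, which phosphorylate STAT transcription factors. Stat3 carries most of the IL-6 family signal, while Stat5a and Stat5b also serve the growth hormone receptor in muscle. STAT factors switch on Socs3, Socs2 and Cish, whose products block the receptors and kinases in a feedback loop. In muscle, IL-6 is released from contracting fibres and acts on fibres and satellite cells.

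Between 13286983 and 22987237 reads per library were counted on genes. The share of reads on Ttn, which encodes titin of the sarcomere, split the libraries into 3 ranges of the numbers in their labels. It lay between 7.02% and 11% in libraries 1 to 5, all of them controls, between 14.2% and 14.7% in libraries 16 to 20, all of them secretome-treated, and between 16.4% and 21.1% in libraries 6 to 15. These ranges were drawn from the counts, and the labels name no batch. Outside libraries 6 to 15, treatment and library range cannot be told apart, so comparisons are also given within those libraries, which hold 5 muscles of each treatment. The 10 marker genes of the skeletal myofibre, among them Acta1 and Ckm, together made up 155759 to 377238 CPM (counts per 1000000 counts of a library, after normalization) of each library, as a muscle label requires, although the extraction protocol in the labels speaks of myotubes.

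The promoters of Cish and Socs3 are shown because these transcripts varied most between muscles, and that of Stat3 because its transcript followed Socs3. The 11 RefSeq promoters available for 9 of the 10 genes (none for Socs2) were searched for TTCNNNGAA, the palindrome bound by STAT factors, which reads the same on both strands. Each promoter spans 250 bases before to 50 bases after the start site in the GRCm38.p6 build, matches are in capitals, and positions are counted from the start site.
Cish (chr9:107296409-107296708, + strand): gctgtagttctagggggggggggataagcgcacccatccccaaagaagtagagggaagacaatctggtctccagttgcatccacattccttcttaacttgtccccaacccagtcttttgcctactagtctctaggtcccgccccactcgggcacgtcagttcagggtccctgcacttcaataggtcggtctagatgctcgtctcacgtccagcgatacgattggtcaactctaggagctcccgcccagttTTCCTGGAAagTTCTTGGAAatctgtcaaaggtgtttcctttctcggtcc
Socs3 (chr11:117969317-117969616, - strand): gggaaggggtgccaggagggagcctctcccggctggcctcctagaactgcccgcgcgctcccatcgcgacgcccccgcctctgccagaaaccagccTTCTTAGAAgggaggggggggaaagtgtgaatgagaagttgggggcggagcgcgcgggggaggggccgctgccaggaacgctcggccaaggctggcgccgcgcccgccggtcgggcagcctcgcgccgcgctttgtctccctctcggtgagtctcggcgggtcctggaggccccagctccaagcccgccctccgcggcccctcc
Stat3 (chr11:100939491-100939790, - strand): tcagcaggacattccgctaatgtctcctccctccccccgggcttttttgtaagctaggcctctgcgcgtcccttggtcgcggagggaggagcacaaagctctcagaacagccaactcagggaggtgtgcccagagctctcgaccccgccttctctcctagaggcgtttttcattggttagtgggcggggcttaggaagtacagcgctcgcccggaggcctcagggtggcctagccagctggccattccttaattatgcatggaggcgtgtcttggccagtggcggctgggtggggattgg
The promoter of Cish held 2 matches that do not overlap, TTCCTGGAA with its first base at position 1 and TTCTTGGAA at position 12. That of Socs3 held 1, TTCTTAGAA, with its first base at position -154. No match stood in the window of Stat3 or in the other 8 promoters of these genes. Of all 32851 promoters searched, 2726 (8.3%) held at least 1 match, and 150 (0.457%) held 2 or more.

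No transcript of the 10 differed between secretome and control muscle at a 5% false discovery rate, in all libraries or in libraries 6 to 15 (edgeR quasi-likelihood test with Benjamini-Hochberg adjustment over all genes tested). The background was as low, with 1 of 14471 genes (0.00691%) past that rate in all libraries and 0 (0%) in libraries 6 to 15. At an unadjusted p under 0.05, Jak2 was higher and Il6ra lower, in both fits. Among all genes tested at that level, 6.52% were higher and 9.21% lower in all libraries, and 5.02% were higher and 4.88% lower in libraries 6 to 15, so that 1 of 10 transcripts in each direction lies near the background. The values of secretome and control muscles overlapped for all 10 transcripts in all libraries, where 0.0484% of all genes had groups that did not overlap, and in libraries 6 to 15, where 1.91% did.

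**Figure D1:**
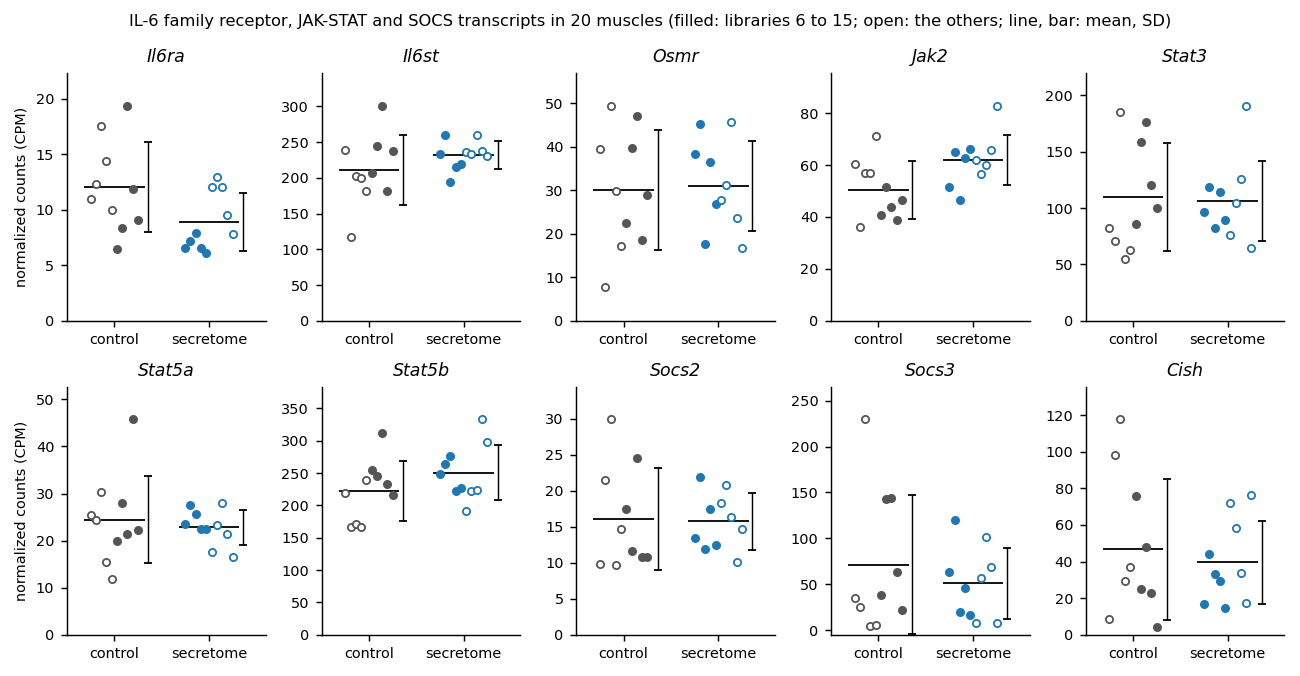
Normalized counts (CPM) of each transcript in 10 control and 10 secretome muscles, 1 point per muscle, filled for libraries 6 to 15 and open for the others, with a line at the mean and a bar of 1 SD. The groups overlap in every panel, and Socs3 spans 4.38 to 230 CPM among the controls. For Jak2 and also for Il6st, 9 of 10 secretome muscles exceed the control median, a count not taken for all genes.

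Among the receptors, Il6ra (ENSMUSG00000027947) encodes the chain that binds IL-6 itself. Its normalized count (CPM) was lowest at 6.45, in the middle at 11.4 and highest at 19.4 in control muscle, and 6.08, 7.83 and 12.9 in secretome muscle. Below the control median lay 7 of 10 secretome muscles. The log2 fold change was -0.44 (SE 0.187, p = 0.0280, adjusted p = 0.267). Within libraries 6 to 15, the control values were 6.45, 8.36, 19.4, 11.9 and 9.11 CPM, and the secretome values were 6.56, 7.15, 7.88, 6.55 and 6.08 CPM. The secretome muscles lay together at the level of the lowest controls, 1 of them below every control, and the log2 fold change was -0.67 (SE 0.245, p = 0.0163, adjusted p = 0.453). Across 27 alternatives to the fit on all libraries the adjusted p of Il6ra ranged from 0.198 to 0.789. Within libraries 6 to 15, its log2 fold change was -0.37 without control 8, which had the highest value, and p was then above 0.05. In bulk muscle, fewer cells of a type and less RNA per cell cannot be told apart. The 10 macrophage markers, of which none was at 0 in all libraries, all lay below 0 in log2 fold change, 6 of them at p under 0.05. Their summed level was 90.1 to 276 CPM in control and 58.5 to 206 CPM in secretome muscle, and 90.1 to 200 against 58.5 to 95.5 CPM within libraries 6 to 15. Adipocyte markers also lay below 0, 5 of 5 with 1 at p under 0.05, and summed to 52.0 to 271 CPM in control and 25.8 to 95.8 CPM in secretome muscle, or 55.0 to 118 against 25.8 to 63.6 CPM within libraries 6 to 15. Markers of fibro-adipogenic progenitors lay below 0 for 7 of 7 genes in all libraries, 0 of them at p under 0.05. Their sums were 214 to 984 CPM in control and 285 to 616 CPM in secretome muscle. Within libraries 6 to 15, 5 of 7 lay below 0, but 1 was higher and 0 lower at p under 0.05. The sums there were 214 to 458 CPM in control and 285 to 400 CPM in secretome muscle, inside the control range. Of all 14471 genes tested, 8084 lay below 0 in all libraries and 7530 in libraries 6 to 15. At p under 0.05, 9.21% and 4.88% were lower. Endothelial markers lay below 0 for 6 of 7 genes in both fits, while 4 of 6 tested neutrophil markers lay above 0 in all libraries. The part of these cells in the difference of Il6ra was not tested.

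Il6st (ENSMUSG00000021756) encodes the signalling chain shared by the whole family. Its level ran from 117 over a median of 205 to 301 CPM in control muscle and from 194 over 233 to 260 CPM in secretome muscle. The secretome values lay inside the control range and closer to each other, with 9 of 10 above the control median. The log2 fold change was 0.13 (SE 0.116, p = 0.255, adjusted p = 0.579) in all libraries and -0.05 (SE 0.134, p = 0.703, adjusted p = 0.902) in libraries 6 to 15. Osmr (ENSMUSG00000022146), which encodes the receptor chain for oncostatin M, ranged from 7.83 to 49.5 CPM with a median of 29.4 in control muscle, and from 16.8 to 45.7 CPM with a median of 29.5 in secretome muscle. The medians of Osmr were nearly equal and the log2 fold change was 0.05 (SE 0.265, p = 0.866, adjusted p = 0.947) in all libraries and 0.09 (SE 0.292, p = 0.772) in libraries 6 to 15.

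Jak2 (ENSMUSG00000024789) encodes a kinase bound to the shared chain and to the growth hormone receptor. In control muscle it ranged from 36.2 to 71.2 CPM with a median of 49.1, and in secretome muscle from 46.7 to 82.9 CPM with a median of 62.4. Secretome muscles were above the control median in 9 of 10 cases, with a log2 fold change of 0.30 (SE 0.118, p = 0.0181, adjusted p = 0.237). The controls of libraries 6 to 15 had 40.8, 51.7, 43.9, 38.7 and 46.5 CPM and the secretome muscles 51.4, 65.0, 46.7, 62.8 and 66.0 CPM. Of the secretome muscles, 3 were above every control, and the other two lay among the upper controls. The log2 fold change in libraries 6 to 15 was 0.41 (SE 0.121, p = 0.00438, adjusted p = 0.412). Over the 27 alternatives to the fit on all libraries, its log2 fold change ran from 0.24 to 0.40, p from 0.00308 to 0.0449, and the adjusted p from 0.133 to 0.789. A two-sided exact permutation test within libraries 6 to 15 gave p = 0.0238 for Jak2 and p = 0.0476 for Il6ra, where the smallest p possible is 0.00794, and p above 0.05 for the other 8 transcripts.

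Stat3 (ENSMUSG00000004040), the main factor of the IL-6 family, ranged from 55.2 to 186 CPM with a median of 93.1 in control muscle and from 64.7 to 191 CPM with a median of 101 in secretome muscle. The groups covered the same range, and the log2 fold change was -0.05 (SE 0.225, p = 0.837, adjusted p = 0.933). In libraries 6 to 15 it was -0.34 (SE 0.185, p = 0.0851, adjusted p = 0.549), and in the other libraries 0.30 (SE 0.313). These opposite values did not differ beyond their error (difference 0.65, SE 0.443, p = 0.156, adjusted p = 0.625). Stat5a and Stat5b encode close relatives that carry growth hormone signals. Stat5a (ENSMUSG00000004043) ranged from 11.8 to 45.7 CPM with a median of 23.4 in control and from 16.5 to 27.9 CPM with a median of 22.9 in secretome muscle. Control 9 stood alone at the top, with 30.3 CPM in the next control, and the log2 fold change was -0.10 (SE 0.170, p = 0.564, adjusted p = 0.799) in all libraries and -0.16 (SE 0.196, p = 0.432) in libraries 6 to 15. Stat5b (ENSMUSG00000020919) ranged from 166 to 312 CPM with a median of 226 in control and from 192 to 333 CPM with a median of 237 in secretome muscle. Its log2 fold change was 0.17 (SE 0.119, p = 0.161, adjusted p = 0.480).

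The log2 fold change of Stat5b was -0.02 (SE 0.113) in libraries 6 to 15 and 0.40 (SE 0.15) in the others, and that of Il6st was -0.05 and 0.35 (SE 0.152). In the others, treatment and library range cannot be told apart. Between the ranges these differed by 0.43 (SE 0.212, p = 0.0578, adjusted p = 0.472) for Stat5b and by 0.41 (SE 0.215, p = 0.0691, adjusted p = 0.495) for Il6st. Of the 10 transcripts, 0 differed in this way at p under 0.05 or at a 5% false discovery rate, while 11.1% of all genes did at p under 0.05 and 0.0553% at that rate.

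Socs3 (ENSMUSG00000053113), which encodes the main inhibitor of IL-6 family receptors, had the widest range. In control muscle it ran from 4.38 over a median of 36.8 to 230 CPM, and in secretome muscle from 7.32 over 51.4 to 120 CPM. Controls 3, 7 and 8 held the 3 highest values and controls 4 and 5 the lowest, so that the controls enclosed all secretome muscles. The log2 fold change was -0.48 (SE 0.661, p = 0.472, adjusted p = 0.747) in all libraries and -0.62 (SE 0.679, p = 0.384, adjusted p = 0.756) in libraries 6 to 15, although the secretome median was the higher one in all libraries. Without control 3 the value in all libraries was -0.071, and within libraries 6 to 15 it ran from -1.16 without secretome 2 to -0.31 without control 8. Cish (ENSMUSG00000032578), an inhibitor induced through STAT5, ran from 4.18 over 33.0 to 118 CPM in control and from 14.4 over 33.7 to 76.4 CPM in secretome muscle. Its log2 fold change of -0.24 (SE 0.480, p = 0.630, adjusted p = 0.836) was 0.03 without control 3, which had the highest value, and in libraries 6 to 15 it was -0.34 (SE 0.624, p = 0.602). Socs2 (ENSMUSG00000020027), an inhibitor of growth hormone signalling, ran from 9.74 over 13.2 to 29.9 CPM in control and from 10.1 over 15.5 to 22.0 CPM in secretome muscle. The log2 fold change of Socs2 was -0.03 (SE 0.205, p = 0.884, adjusted p = 0.955) in all libraries and 0.05 (SE 0.25, p = 0.852) in libraries 6 to 15. Control 3, the highest muscle in Socs3, Cish and Socs2, was also the highest in summed macrophage markers (276 CPM) and had 110 CPM of the neutrophil markers, which ranged from 5.34 to 110 CPM in control and from 4.27 to 122 CPM in secretome muscle. The part of these cells in the spread of the inhibitors was not tested.

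**Figure D2:**
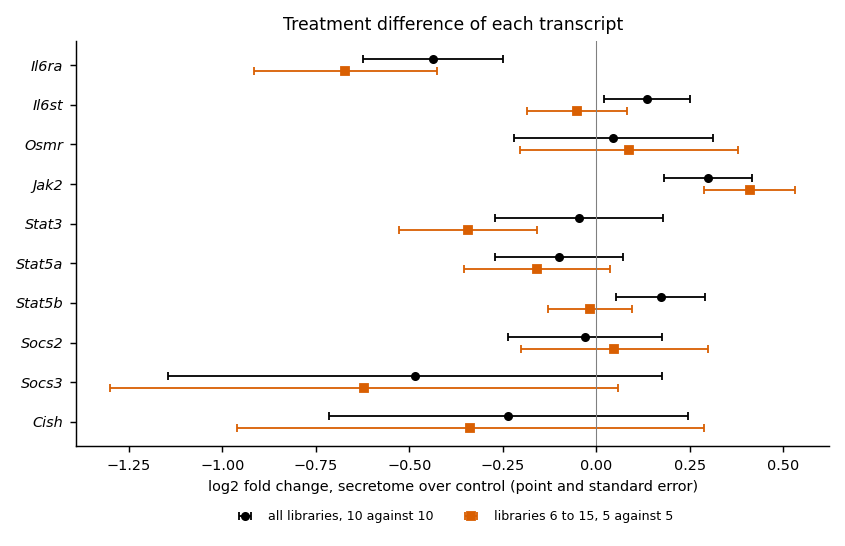
Log2 fold change of each transcript (secretome over control; point and standard error) in all libraries (black) and in libraries 6 to 15 (orange). Il6ra is below and Jak2 above 0 by more than 2 standard errors in both, while Socs3 and Cish have the longest bars.

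The transcripts differed in how much they varied between muscles of the same treatment. Within the control group, the highest value was 52.6 times the lowest for Socs3 and 28.1 times for Cish, against 1.88 times for Stat5b and 1.97 times for Jak2. In secretome muscle it was 16.3 times for Socs3 and 5.32 times for Cish, against 1.3 times for Il6st. Variation was also read as the SD of log2 CPM among the 7298 genes whose mean level was at least that of the lowest of the 10 transcripts. Socs3, with an SD of 1.93 in control and 1.48 in secretome muscle, was exceeded by 0.0411% of these genes in each group. For Cish, with SDs of 1.5 and 0.87, the shares were 0.164% in control and 0.630% in secretome muscle. Osmr was exceeded by 2.15% and 3.54%, Stat3 by 5.03% and 5.23%, and Socs2 by 6.33% and 8.91%. At the other end, Jak2 was exceeded by 42.0% and 34.1% and Stat5b by 45.9% and 28.8%, and Il6st by 29.8% in control but 83.8% in secretome muscle. The median gene of this set had an SD of 0.29 in control and 0.19 in secretome muscle. The feedback inhibitors Socs3 and Cish thus stood among the most variable transcripts of both groups, while Jak2 and Stat5b lay near the middle. These shares are descriptions without a test.

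Levels were compared between genes per kilobase of merged exons, in CPM per kb. By their medians over the 20 muscles they ran from Stat5b (41.5) over Il6st (20.9), Socs3 (14.5), Jak2 (11.3), Stat3 (10.3), Cish (5.25), Stat5a (3.21), Osmr (2.43) and Socs2 (1.54) to Il6ra (1.13). Stat5b was above Il6st in 20 of 20 muscles (mean log2 ratio 1.09, SD 0.27, two-sided permutation test, adjusted over 9 neighbouring pairs, p = 9e-05, from the smallest p that 100000 resamples can give). In the middle of this order neighbours were not separated, with adjusted p = 0.102 for Il6st and Socs3, 0.733 for Socs3 and Jak2, 0.795 for Jak2 and Stat3, and 0.0537 for Cish and Stat5a. The other 5 pairs had adjusted p between 9e-05 and 0.0101. With the length of the principal transcript in place of all merged exons, Stat5b (44.1) remained highest and Il6ra (2.92) lowest, but Stat3 stood at 21.8 and Socs2, at 6.61, was above Stat5a (5.89) and Osmr (5.36).

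Across the 20 muscles, the log2 CPM of 4 of the 45 pairs of these transcripts was correlated at a Benjamini-Hochberg adjusted p under 0.05 (two-sided permutation test of Pearson's r with 100000 resamples), all of them positively. By Spearman's rho there were 6 such pairs. Stat3 and Socs3 had r = 0.889 and rho = 0.907, each with p = 1e-05, the smallest the permutations can give (adjusted p = 0.00045). Without control 3 and secretome 9, which lay farthest from the median of Stat3, r was 0.909. It was 0.848 in libraries 6 to 15, and 0.887 after the mean of each treatment and library range was subtracted. Muscles low in Stat3, such as controls 4 and 5, were the lowest in Socs3 too, and those high in Stat3, such as controls 3, 7 and 8, were the highest, but secretome 9, with the most Stat3 (191 CPM), had 69.1 CPM of Socs3. Exons of Stat3 and Stat5a share 72 bases on opposite strands, while Socs3 overlaps no annotated exon of another gene.

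Socs2 and Cish, the inhibitors linked to STAT5, had r = 0.757 (p = 0.00014, adjusted p = 0.0021) and rho = 0.806 (p = 9e-05, adjusted p = 0.00203). The value of r was 0.729 without controls 3 and 8, 0.665 in libraries 6 to 15, and 0.773 within treatment and range. Il6st and Osmr, the chains of the oncostatin M receptor, had r = 0.807 (p = 7e-05, adjusted p = 0.00158) and rho = 0.672 (p = 0.00165, adjusted p = 0.0186). Control 2 was the lowest of all muscles in both, and without controls 2 and 8 r was 0.592, against 0.886 in libraries 6 to 15 and 0.879 within treatment and range. Stat5a and Socs3 had r = 0.719 (p = 0.0002, adjusted p = 0.00225) and rho = 0.644 (p = 0.00287, adjusted p = 0.0258). This pair had r = 0.789 without controls 5 and 9 and 0.68 within treatment and range, but 0.239 over the 10 muscles of libraries 6 to 15, which include control 9, the highest in Stat5a.

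**Figure D3:**
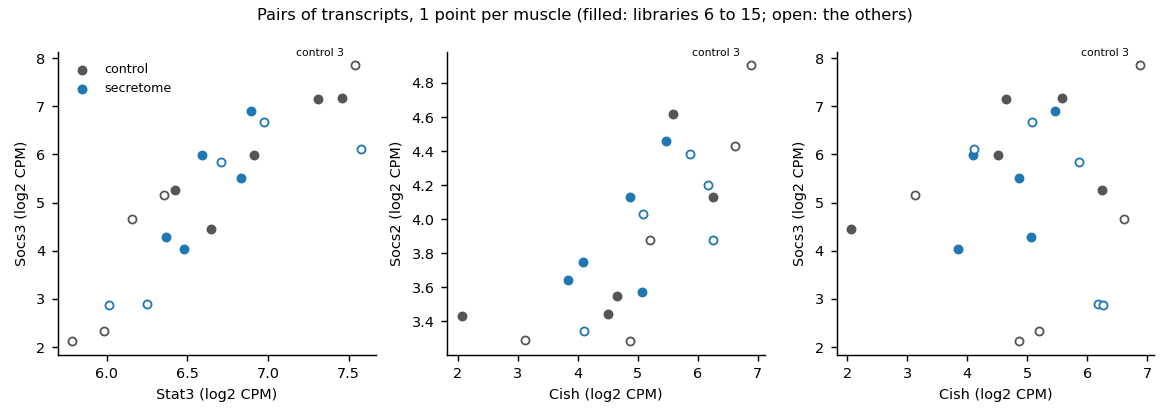
Log2 CPM of Socs3 against Stat3 (left), Socs2 against Cish (middle) and Socs3 against Cish (right), 1 point per muscle, grey for control and blue for secretome, filled for libraries 6 to 15. The first pair rises along a line (r = 0.889), the middle pair rises with more scatter (r = 0.757), and the last shows no trend (r = 0.05).

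Another inhibitor pair, Socs3 and Cish, was not correlated over the 20 muscles (r = 0.05, p = 0.830, adjusted p = 0.962, and rho = 0.07, p = 0.782, adjusted p = 0.866). Its r was 0.06 without controls 4 and 5, 0.442 in libraries 6 to 15, 0.24 in control and -0.38 in secretome muscle. The third, Socs2 and Socs3, had r = 0.39 (p = 0.0894, adjusted p = 0.335) and rho = 0.377 (p = 0.101, adjusted p = 0.380). Its r was 0.137 without controls 3 and 8 and 0.519 in libraries 6 to 15. Socs3 followed the receptor chain Osmr with r = 0.554 (p = 0.0102, adjusted p = 0.0767) and rho = 0.707 (p = 0.00066, adjusted p = 0.0099), and r was 0.621 without control 2 and secretome 10 and 0.676 in libraries 6 to 15. Osmr and Stat3 had r = 0.543 (p = 0.0124, adjusted p = 0.0794) and rho = 0.606 (p = 0.00567, adjusted p = 0.0425), with r = 0.471 without the same muscles and 0.637 in libraries 6 to 15. Socs3 and Il6ra had r = 0.158 (p = 0.502, adjusted p = 0.735) and rho = 0.156 (p = 0.508, adjusted p = 0.846), with r = -0.21 without controls 3 and 8 and 0.46 in libraries 6 to 15. For Socs3 and Il6st, r was 0.338 (p = 0.1465, adjusted p = 0.425) and rho was 0.484 (p = 0.03205, adjusted p = 0.174). Without controls 2 and 8 their r was 0.354, and in libraries 6 to 15 it was 0.576. The value of r for Socs3 was thus higher with Stat3 than with Osmr, Il6ra or Il6st, and the difference between these correlations was not tested. Stat5a and Stat5b had r = -0.04 (p = 0.876, adjusted p = 0.962) and rho = -0.10 (p = 0.677, adjusted p = 0.866), with r = -0.03 without controls 5 and 9 and -0.14 in libraries 6 to 15. Of the 150-base stretches of their transcripts, 175 were the same, 2.21% of those of Stat5a and 3.16% of those of Stat5b. The lowest of the 45 values was that of Jak2 and Stat5a (r = -0.47, p = 0.0347, adjusted p = 0.173; rho = -0.34, p = 0.146, adjusted p = 0.468), with r = -0.32 without controls 2 and 9 and -0.27 in libraries 6 to 15.

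**Figure D4:**
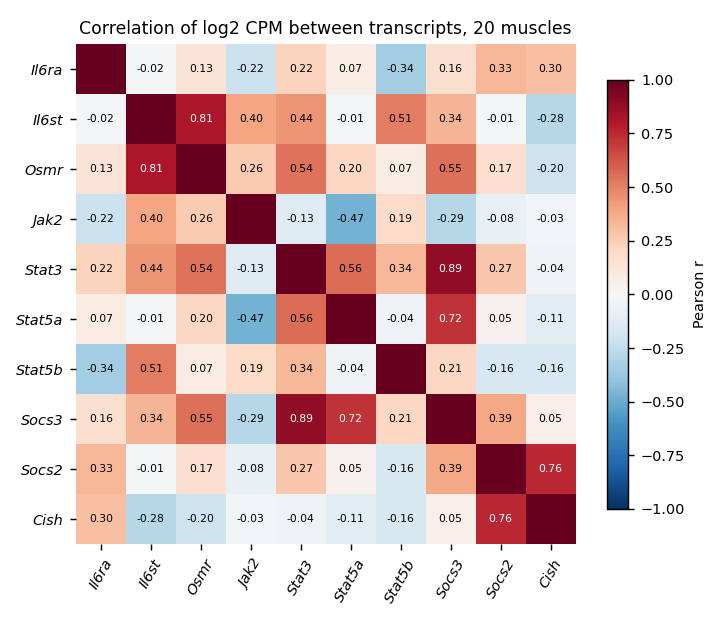
Pearson's r of log2 CPM for each pair of the 10 transcripts over 20 muscles, red for positive and blue for negative values. The darkest squares off the diagonal are Stat3 with Socs3, Il6st with Osmr, Socs2 with Cish and Stat5a with Socs3.

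For each transcript the 3 genes with the most similar pattern were taken from all 14471 genes, by Pearson's r of log2 CPM over the 20 muscles after the mean of each treatment was subtracted, as a description. Those of Socs3 were Junb (r = 0.964), Arid5a (0.963) and Tnip2 (0.942), and those of Stat3 were Smad1 (0.961), Sh3bp2 (0.952) and Ptpn1 (0.943). Junb is a subunit of the early-response factor AP-1, and Ptpn1 encodes a phosphatase that acts on Janus kinases. Cish was the gene most like Socs2 (0.756), ahead of Fam210b (0.738) and Ttll4 (0.738). Cish itself was most like Rbm14 (0.861), 1300014J16Rik (0.777) and Rrnad1 (0.775). Osmr was most like Hif1a (0.932), the oxygen-sensing factor, Rell1 (0.898) and Samsn1 (0.880), and Il6st most like Rps6ka3 (0.898), Rbm18 (0.893) and Fem1c (0.887). The genes nearest to Il6ra were Crtap (0.818), Spsb1 (0.793) and Tgfbr2 (0.743), and those nearest to Jak2 were Zfp426 (0.862), Neto2 (0.855) and 4930453N24Rik (0.845). Stat5a went with Gadd45a (0.900), Esyt1 (0.885) and Srebf2 (0.870). Stat5b went with Actn3 (0.889), a structural protein of fast fibres, and with Alkbh5 (0.881) and Ext2 (0.881). The mean of each library range was not subtracted for these values. Within libraries 6 to 15, r of these pairs ran from 0.566 (Il6ra and Tgfbr2) to 0.991 (Stat5a and Srebf2), and it was 0.642 for Stat5b and Alkbh5.

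The rest of the pathway was read from 9 lists of ligands, receptors, kinases, factors, inhibitors and induced genes, which hold 86 genes, 76 of them besides the 10 above. Most IL-6 family ligands were too low for the edgeR fit. The highest count in any library was 28 for Il6, 21 for Osm, 20 for Cntf, 16 for Lif, 5 for Il27 and 4 for Il11. Ctf2 had 0 counts in every library. Il6 had a median of 0.233 CPM in control and 0.369 CPM in secretome muscle. In DESeq2 over all libraries its log2 fold change was 0.12 (p = 0.863, adjusted p = 0.953). The adjusted p there was 0.642 for Osm, 0.984 for Cntf and 0.611 for Lif. The secretome is of human origin, and counts of mouse transcripts do not show the ligands it carries. Of the 3 ligands tested in edgeR, Clcf1 (log2 fold change -0.49, p = 0.0741) and Ctf1 (-0.24, p = 0.0931) had the smallest p in all libraries. In libraries 6 to 15 they had -0.68 (p = 0.0661) and -0.18 (p = 0.297).

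At a 5% false discovery rate, 0 of the 62 tested genes besides the 10 differed, in either fit. At p under 0.05 in all libraries, 4 of the 62 were higher and 9 lower, beside 6.52% and 9.21% of all genes. Within those of 6 to 15, 0 were higher and 11 lower, beside 5.02% and 4.88% of all genes. The median log2 fold change of the 62 was -0.15 in all libraries, beside -0.03 for all genes tested, and -0.13 beside -0.01 in libraries 6 to 15. Without control 3, the count at p under 0.05 over all 72 tested pathway genes was 6 instead of 15 in all libraries, and within libraries 6 to 15 it was 8 without control 8 and 21 without control 10, instead of 13.

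Among the receptors, Lifr, which pairs with the Il6st product, was higher in all libraries (0.26, p = 0.0282, adjusted p = 0.268) and Il11ra1 was lower (-0.40, p = 0.0452, adjusted p = 0.305). Neither reached p under 0.05 in libraries 6 to 15 (0.17, p = 0.196 for Lifr and -0.31, p = 0.169 for Il11ra1). With each library left out, p for Il11ra1 stayed under 0.05 in 10 of 20 fits, its log2 fold change being -0.23 without control 2, and p for Lifr in 17. The smallest p in the pathway was that of Il10ra, a receptor chain of leukocytes, at 2.30, 2.92 and 6.52 CPM (lowest, median and highest) in control and 0.607, 1.76 and 2.79 CPM in secretome muscle. All 10 secretome muscles lay below the control median of Il10ra. Such counts against the control median, here and wherever given for other transcripts, were not taken for all genes. Within libraries 6 to 15 the groups did not overlap for Il10ra, as for 1.91% of all genes. The log2 fold change of Il10ra was -1.09 (SE 0.253, p = 0.000259, adjusted p = 0.109) in all libraries and -1.13 (SE 0.314, p = 0.00287, adjusted p = 0.405) in libraries 6 to 15. In DESeq2 it passed the false discovery rate in all libraries (adjusted p = 0.00961). Il2rg was lower in all libraries (-0.76, p = 0.0105) and in libraries 6 to 15 (-0.77, p = 0.0170). Ifnar2 was lower in all libraries (-0.47, p = 0.0179) but not past p = 0.05 in libraries 6 to 15 (-0.25, p = 0.159), nor in all libraries without control 3 (-0.32). Il27ra, with at most 48 counts in a library, was left out of the main edgeR fit by the filter on low counts. It passed the false discovery rate in DESeq2 (-1.61, adjusted p = 0.0132), but not in edgeR without that filter. Il10ra, Il2rg and Il27ra are known from leukocytes. The macrophage markers given beside Il6ra had log2 fold changes below 0 in the same comparison. Neutrophil markers did not share this, with 4 of 6 tested above 0 in all libraries (median 0.51) and 3 of 6 in libraries 6 to 15 (median 0.064). Of these 6, 0 had p under 0.05 in either fit. Lymphocyte markers, which were too low to test, had lower sums. The T cell markers summed to 0.116 to 8.32 CPM (median 1.90) in control and 0 to 1.37 CPM (median 0.525) in secretome muscle, and the B cell markers to 0.529 to 8.26 CPM (median 1.85) and 0.378 to 1.18 CPM (median 0.672). Single genes of these lists reached at most 31 and 58 counts in a library, and the part of these cells in these differences was not tested.

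**Figure D5:**
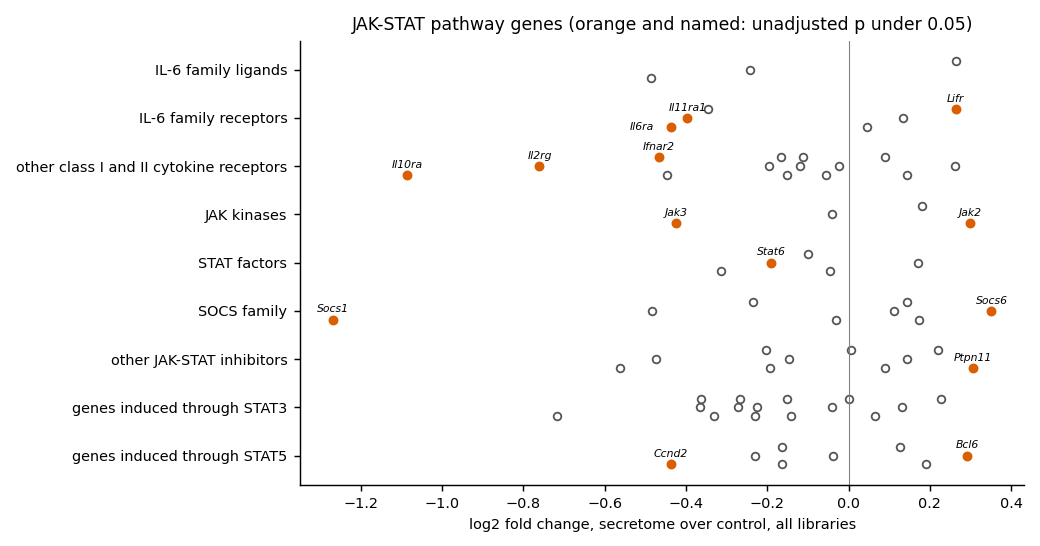
Log2 fold change (secretome over control, all libraries) of tested genes of the 9 pathway lists (1 gene left out), 1 point per gene in each list that holds it, with genes of unadjusted p under 0.05 in orange and named. Il10ra and Socs1 lie farthest below 0, and genes of each list stand on both sides of 0.

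Of the other kinases and factors, Jak3 (-0.42, p = 0.0208, adjusted p = 0.246) and Stat6 (-0.19, p = 0.0395, adjusted p = 0.294) were lower in all libraries and in libraries 6 to 15 (-0.35, p = 0.0265 and -0.25, p = 0.0301). Without control 3 neither had p under 0.05 in all libraries (-0.31 for Jak3 and -0.15 for Stat6), and Stat6 kept it in 9 of 20 such fits. Jak3 is mainly a kinase of lymphoid cells. Among the SOCS genes, Socs1 ran from 0.522 over 1.66 to 12.3 CPM in control and from 0.439 over 0.906 to 3.92 CPM in secretome muscle, with overlapping groups. The log2 fold change of Socs1 was -1.27 (SE 0.514, p = 0.0221, adjusted p = 0.247) in all libraries and -0.85 (p = 0.0686) in libraries 6 to 15. Without control 3, the highest muscle, Socs1 had a log2 fold change of -0.63 (p = 0.136) in all libraries. Socs6 was higher in all libraries (0.35, p = 0.0416, adjusted p = 0.299), but at 0.19 (p = 0.261) in libraries 6 to 15 and with p under 0.05 in 11 of 20 fits that left out 1 library. Among the other inhibitors, Ptpn11, a phosphatase that also relays receptor signals, exceeded the control median in every secretome muscle, 10 of 10 (0.31, p = 0.00484, adjusted p = 0.173). Its log2 fold change was 0.08 (p = 0.378) in libraries 6 to 15 and 0.56 in the other libraries, where treatment and library range cannot be told apart. Between the ranges these values differed by 0.49 (SE 0.166, p = 0.00746, adjusted p = 0.251). Pias2, an inhibitor of activated STAT factors, had a log2 fold change of 0.22 (p = 0.0689) in all libraries and 0.32 (p = 0.0859) in libraries 6 to 15. Ptprc, the leukocyte phosphatase CD45, was at p under 0.05 only in libraries 6 to 15 (-0.78, p = 0.0179, adjusted p = 0.453).

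Of the 15 genes induced through STAT3, 0 had p under 0.05 in all libraries, and 11 had a log2 fold change below 0 (median -0.23), as had 8084 of all 14471 genes tested (median -0.03). The smallest p were those of Vegfa (-0.27, p = 0.138) and Bcl3 (-0.72, p = 0.203), which had 0.061 (p = 0.585) and -0.073 (p = 0.842) in libraries 6 to 15. Within libraries 6 to 15, Serpina3n (-0.92, p = 0.000805, adjusted p = 0.398) and Lcn2 (-1.51, p = 0.0190, adjusted p = 0.453), both acute-phase genes, were lower, and Serpina3n passed the false discovery rate in DESeq2 (adjusted p = 0.0349). Neither had p under 0.05 in all libraries (-0.37, p = 0.334 and -0.36, p = 0.506). Control 8 held 11.7 CPM of Lcn2, and without it the log2 fold change in libraries 6 to 15 was -0.71, with p above 0.05. In the other libraries Lcn2 had a log2 fold change of 0.88, which differed from that in libraries 6 to 15 by 2.40 (p = 0.0268, adjusted p = 0.358). Of the 8 tested genes induced through STAT5, Ccnd2, a cyclin of cell cycle entry, lay under the control median in every secretome muscle, 10 of 10 (-0.44, p = 0.00115, adjusted p = 0.136), and had -0.40 (p = 0.0169) in libraries 6 to 15. Bcl6, a transcriptional repressor that stands in this list although STAT5 is known to repress it, was higher in all libraries (0.29, p = 0.0392, adjusted p = 0.293), with 0.22 (p = 0.0906) in libraries 6 to 15 and p under 0.05 in 9 of 20 fits that left out 1 library. Bcl2l1 (-0.35, p = 0.0435) and Igfbp3 (-0.27, p = 0.0499) reached p under 0.05 in libraries 6 to 15 alone, and there in 4 and 3 of 10 fits that left out 1 library.

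Reads from the opposite strand may have been counted for some of the 10 transcripts, as the strand setting of the counting is not given in the sources used here. This holds for the 72 bases that exons of Stat3 and Stat5a share on opposite strands. Exons of Il6ra overlap the antisense gene Gm42809 over 242 bases (2.8%), and those of Cish overlap Gm17041 over 479 bases (7.46%) and the pseudogene Gm17040 over 261 bases (4.07%).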

How the data were processed

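The labels name 20 libraries, 10 control and 10 secretome, each numbered within its treatment. The study gives n = 10 for this experiment without saying whether this is per treatment, and 1 injected muscle per mouse, so that the libraries were read as separate mice. The authors deposited whole-number counts of reads per gene, without normalization, in 1 column per muscle, and every column was matched to a sample. Libraries came from total RNA depleted of ribosomal RNA with a stranded kit, sequenced as pairs of 150 bases. The submitters' processing notes name cutadapt 1.16, STAR 2.7.9a, featureCounts 1.6.3, DESeq2 1.34.0 and the GRCm39 build. The annotation release, the strand setting and the treatment of reads with several matches are not given in the sources used here. Ribosomal depletion keeps unspliced RNA, so counts need not reflect mature transcripts alone.

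Symbols, exon lengths and overlaps came from GENCODE M21 on GRCm38, which named 52083 of 55416 genes. The 14471 genes kept by filterByExpr were normalized by TMM and tested in edgeR 4.0.16 (R 4.3.3) by its robust quasi-likelihood F-test, treatment being the sole term, and again in libraries 6 to 15. A contrast over 4 groups of treatment and library range tested the difference between both effects. Each SE is the size of the log2 fold change divided by the square root of F. Correlations used log2 CPM with a prior count of 2. Alternatives were DESeq2 1.42.0, voom of limma 3.58.1 with quality weights, RLE normalization, no filter, a replicate block, a term for library ranges, a 10% false discovery rate and libraries left out. The scripts were tested on simulated data. The replicates' depth sets the counting precision, and p-values weigh differences and correlations against the spread between these muscles.

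The 10 members and all lists were chosen with earlier results of these data known. The genes named were all members, every listed pathway gene with p under 0.05 in either fit, the 2 genes of smallest p in each list, 3 genes most like each member, and set pairs of members with the 3 highest and the lowest r. The pairs of Socs3 with Socs2 and with Il6st were added after the values were seen. Genes that passed only in DESeq2 were named after their values were seen. Of the pathway genes that the rule names, 1 is not reported here.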

Additional observations from a re-analysis of the deposited data

How the results depend on the processing

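Under every alternative, 0 of the 10 transcripts passed the false discovery rate, also in DESeq2, which called 216 genes in all libraries and 37 in libraries 6 to 15. The count at p under 0.05 was 2, and it was 1 (Jak2) with voom and without controls 3 and 9, and 1 to 2 with each library left out in turn. Jak2 kept p under 0.05 in 20 of 20 of these fits and Il6ra in 15, losing it without control 3, control 8, secretome 1, secretome 4 or secretome 5. Within libraries 6 to 15 the count was 1 to 3, with 1 without control 8, and the count of differences between the ranges was 0 to 2. For the pathway lists, 0 genes passed in edgeR and 2 in DESeq2 (1 in libraries 6 to 15). At p under 0.05 there were 15 genes, 9 with voom, 6 with the 3 ranges as a term, 6 without controls 3 and 9, and 6 to 17 with a library left out (6 without control 3, 9 without secretome 6). Within these libraries there were 13, 6 with 4 groups in 1 fit, and 8 to 21 with a library left out.

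Signs turned for differences that were small against their error. With voom the log2 fold change was 0.068 for Stat5a, 0.19 for Socs2, 0.048 for Socs3 and 0.33 for Cish. With the 3 ranges as a term it was -0.063 for Il6st, -0.028 for Stat5b and 0.036 for Socs2. Without controls 3 and 9 it was 0.10 for Stat3, 0.11 for Stat5a and 0.070 for Socs2. With the replicate number as a block it was 0.013 for Stat3 and 0.043 for Socs2, and the block called 0 genes in all and left Il6ra and Jak2 at p under 0.05. The same numbers do not pair the muscles, since the correlations of their deviations ran from -0.24 to 0.221 and 2 of 10 were over 0.1, and 0 of 10 controls correlated best with their own number. With each library left out, the log2 fold change ran from -0.068 to 0.15 for Osmr, -0.18 to 0.068 for Stat3, -0.18 to 0.047 for Stat5a, -0.095 to 0.11 for Socs2 and -0.39 to 0.032 for Cish. In libraries 6 to 15 it ran from -0.13 to 0.057 for Il6st, -0.053 to 0.28 for Osmr, -0.26 to 0.10 for Stat5a, -0.070 to 0.074 for Stat5b, -0.11 to 0.29 for Socs2 and -0.62 to 0.16 for Cish. Without control 3, r was -0.10 for Socs3 and Cish and 0.057 for Stat5a and Stat5b. The cause was not tested. The length per gene was an alternative added after the data were seen.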
